A study of Erythranthe pardalis x Erythranthe guttata and Erythranthe pardalis with 20 samples.

Results

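Of 28140 annotated *Mimulus* genes, 33 (0.117%) reached a set mean level in hybrid seeds at 6 days after pollination (DAP) and stayed under a low limit in the mean of every other age sampled. They were chosen by their mean CPM (the count of a gene per 1000000 counts of its library), which had to be at least 5 at 6 DAP and at most 1 at each of the other ages, which were 0, 2, 4 and 8 DAP. Seeds were made by pollinating SEC39, an inbred line of the selfing species *M. pardalis*, with CSS4, an inbred line of *M. guttatus*, so every seed library comes from the same cross. Embryo and endosperm are hybrid, while the seed coat, which these libraries also hold, is maternal SEC39 tissue. Whole hybrid seeds at 2 DAP (4 libraries), 4 DAP (3), 6 DAP (4) and 8 DAP (4) were set beside unfertilized SEC39 ovules at 0 DAP (5 libraries), which carry the maternal genome alone. By the study's description, embryos are late globular at 6 DAP and the endosperm, which is cellular from the start, is still proliferating. Each library is a pool of many seeds or ovules, and in such bulk tissue fewer cells of a type and less RNA per cell cannot be told apart. By the authors' account, separating seeds and ovules by hand may have added some placental tissue.

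Plant cell walls are built of cellulose and hemicelluloses embedded in pectin, and some cells later add a secondary wall rich in xylan and lignin. Pectin is loosened or stiffened by lyases, glycosidases and methylesterases, whose action is held back by small inhibitor proteins, while peroxidases and laccases couple lignin monomers. Secreted proteases and their inhibitors act in the same compartment outside the cell, and transcription factors of the NAC and MYB families switch the secondary wall genes on.

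Total counts per library ran between 7588155 and 16529554 with a median of 13118699, and 2519 genes had no count anywhere. A count of 0 allows up to 3 counts, which is 0.181 to 0.395 CPM depending on the library, and limits of this kind cover counting error only. Ovule replicates 1 and 5 had the smallest totals, and the membership was the same 33 genes without them. Embryo and maturation markers came to a summed 37.6 to 57.1 CPM at 6 DAP and 122.7 to 280.5 CPM at 8 DAP, against 0.625 to 2.36 CPM in ovules. Of these 8 markers, 3 had their highest mean at 6 DAP and 2 stayed below 1 CPM at every age, so not all follow the sum. Of 8 endosperm markers, the ZHOUPI homologue Migut.N01183 averaged 9.19 CPM at 6 DAP and the others at most 1.74 CPM, among them all 6 homologues of AGL62. The 3 markers of xylem vessels, the cell type best known for secondary walls, came to 49.0 to 267 CPM at 6 DAP and 200.3 to 303 CPM at 4 DAP, most of it from the nuclease homologue BFN1, and the homologue of VND7, a vessel master regulator, averaged 0.42 CPM at 6 DAP. The count files carry no gene lengths, so CPM orders genes by their reads and not by transcripts per gene.

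The 33 members together summed to 427, 514, 326 and 378 CPM in 6 DAP replicates 1 to 4. The other libraries summed to no more than 4.48 CPM in ovules, 30.4 CPM in 2 DAP seeds, 10.4 CPM in 4 DAP seeds and 41.1 CPM in 8 DAP seeds. For all 33, the lowest 6 DAP library stood above the highest of the 16 other libraries, which the rule nearly fixes. Over all 20242 genes tested for differential expression this was so for 3.53%. The rule did not require a gene to be silent elsewhere, and 24 members exceeded 1 CPM in some library of another age. In ovules 17 members had no count in any library, against 2 at 2 DAP, 5 at 4 DAP and 1 at 8 DAP, figures that lean on single libraries. A count was found for 28 members in 2 DAP replicate 3, against 15 to 19 in the other 2 DAP libraries. For 8 DAP replicate 2 the number was 32, against 12 to 23 in the other 8 DAP libraries. It was 4 to 8 in ovule libraries and 24 to 25 at 4 DAP. Of all 28140 genes, 20709 had a count in 2 DAP replicate 3, against 20964 to 22575 in the other 2 DAP libraries. In 8 DAP replicate 2 it was 21450 genes, against 20052 to 21637 in the other 8 DAP libraries. Ovule libraries had 19438 to 22245 such genes and 4 DAP libraries 22238 to 22532. The share of all genes without a count in any library of an age was not worked out. All members together had 20127 counts in the 4 libraries of 6 DAP, against 142 in ovules, 745 in 2 DAP seeds, 422 in 4 DAP seeds and 807 in 8 DAP seeds. Of the 745 counts, 490 were in 2 DAP replicate 3, and of the 807 counts, 536 were in 8 DAP replicate 2.

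**Figure D1:**
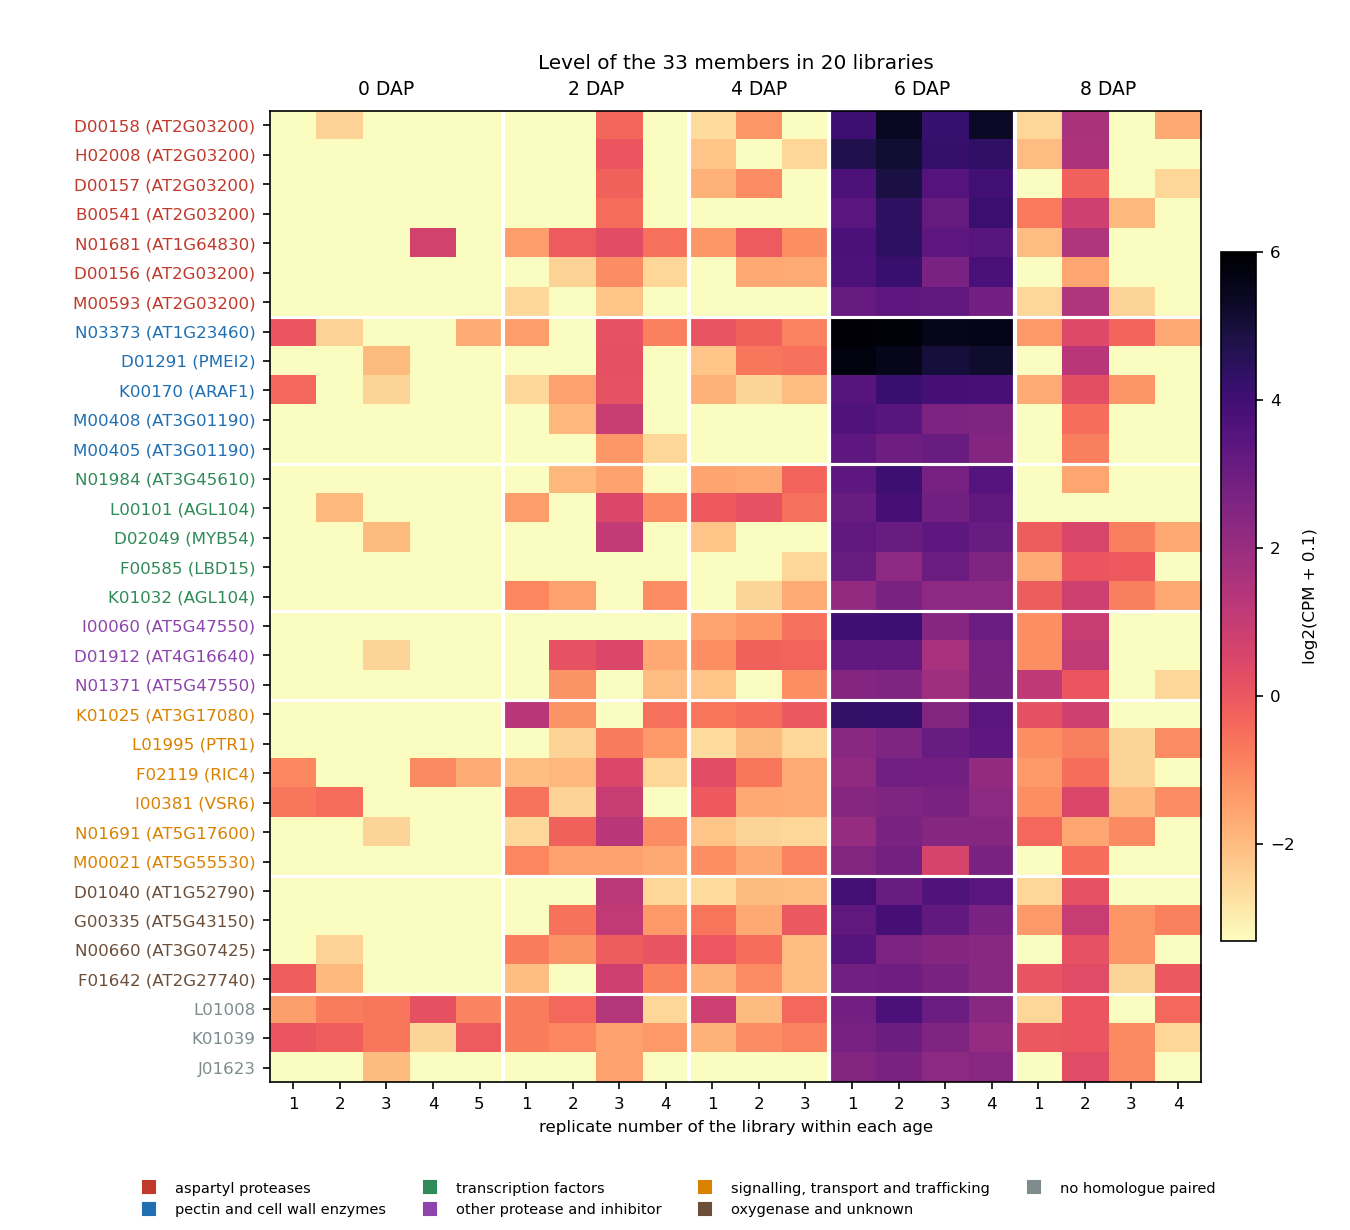
Level of each member (rows, coloured by role, with the symbol or the locus of its nearest *Arabidopsis* homologue) in each of the 20 libraries (columns, by age and replicate) as log2(CPM + 0.1), darker for higher. The 4 columns at 6 DAP are dark throughout, and the faint columns outside them are 2 DAP replicate 3 and 8 DAP replicate 2.

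The nearest *Arabidopsis* homologue was paired with 30 of the 33 by the study's tables, and it is used below to name each gene. Of the members' summed mean CPM at 6 DAP, 30.7% came from 5 enzymes and inhibitors of the cell wall, 29.5% from 7 aspartyl proteases and 10.2% from 5 transcription factors. The order of the first 2 groups differed between libraries. The wall enzymes and inhibitors summed to 148, 140, 107 and 109 CPM in 6 DAP replicates 1 to 4, and the aspartyl proteases to 101.4, 176, 83.4 and 125 CPM, so the aspartyl proteases were higher in replicates 2 and 4. None of the members belonged to the cellulose, xylan or lignin synthesis lists.

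Migut.N03373 had the highest level. Its homologue AT1G23460 is of the pectin lyase-like superfamily, which holds enzymes that cut the pectin backbone. It was at 0.92, 0.08, 0, 0 and 0.21 CPM in ovules, 0.28, 0, 0.99 and 0.44 CPM at 2 DAP, 0.97, 0.75 and 0.44 CPM at 4 DAP, 60.4, 57.4, 46.3 and 47.7 CPM at 6 DAP, and 0.29, 1.23, 0.70 and 0.22 CPM at 8 DAP. The mean at 6 DAP was 52.9 ± 7.02 CPM (SD, n = 4), 73.6 times that of the next age, 4 DAP, and the 6 DAP libraries did not overlap with any other. Its spread between 6 DAP libraries, a coefficient of variation of 13.3%, was among the smaller of the members.

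Migut.D01291, a homologue of the pectin methylesterase inhibitor PMEI2, a small protein that blocks the removal of methyl groups from pectin, was next. Its levels were 53.5, 46.1, 32.0 and 35.8 CPM in 6 DAP libraries, against 0 CPM in 4 ovule libraries and 0.15 CPM in the other, 1.05 CPM in 2 DAP replicate 3 and 0 CPM in the other 2 DAP libraries, 0.12, 0.53 and 0.58 CPM at 4 DAP, and 2.30 CPM in 8 DAP replicate 2 and 0 CPM in the other 8 DAP libraries. Outside 6 DAP its reads thus lay mostly in 1 library of 2 DAP and 1 of 8 DAP, a pattern that many members shared. Together with Migut.N03373 it made up 23.1% of the members' summed CPM at 6 DAP.

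Migut.K00170, a homologue of ARAF1, an arabinofuranosidase that removes arabinose side chains from wall polysaccharides, was at 11.2, 17.7, 14.7 and 14.5 CPM in 6 DAP libraries. Elsewhere it was at 0.66, 0, 0.08, 0 and 0 CPM in ovules, 0.07, 0.25, 0.99 and 0 CPM at 2 DAP, 0.18, 0.08 and 0.15 CPM at 4 DAP, and 0.22, 1.07, 0.31 and 0 CPM at 8 DAP, so no other library came near 6 DAP. A pair of class III peroxidases, Migut.M00405 and Migut.M00408, share the homologue AT3G01190. Migut.M00405 was at 10.3, 7.67, 8.34 and 5.36 CPM at 6 DAP, against 0, 0, 0.31 and 0.07 CPM at 2 DAP and 0, 0.46, 0 and 0 CPM at 8 DAP. Migut.M00408 was at 12.5, 10.9, 6.06 and 5.73 CPM at 6 DAP, against 0, 0.16, 1.80 and 0 CPM at 2 DAP and 0, 0.61, 0 and 0 CPM at 8 DAP. Both were higher in 6 DAP replicate 1 than in the other 6 DAP libraries, and neither had a count in ovules or at 4 DAP. Because the authors counted uniquely mapped reads alone, counts of such close relatives are uncertain.

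Aspartyl proteases, which cut proteins with a pair of aspartate residues, were the largest family among the members. Of the 7, 6 share the homologue AT2G03200, and 3 of these have consecutive identifiers, Migut.D00156, Migut.D00157 and Migut.D00158. Migut.D00158 was at 16.5, 42.4, 18.3 and 39.5 CPM at 6 DAP, against 0 CPM in ovules except 0.08 CPM in replicate 2, 0 CPM at 2 DAP except 0.68 CPM in replicate 3, 0.06, 0.30 and 0 CPM at 4 DAP, and 0.07, 2.99, 0 and 0.22 CPM at 8 DAP. Replicates 2 and 4 of 6 DAP were thus well above replicates 1 and 3.

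Migut.D00157 was at 13.2, 28.9, 11.6 and 15.6 CPM at 6 DAP, against no count in ovules, 0, 0, 0.74 and 0 CPM at 2 DAP, 0.18, 0.38 and 0 CPM at 4 DAP, and 0, 0.77, 0 and 0.07 CPM at 8 DAP. Migut.D00156 was at 13, 18.0, 6.50 and 13.8 CPM at 6 DAP, against no count in ovules, 0, 0.08, 0.37 and 0.07 CPM at 2 DAP, 0, 0.23 and 0.22 CPM at 4 DAP, and 0, 0.23, 0 and 0 CPM at 8 DAP. Its reads at the next highest age, 4 DAP, came to 6 counts over 3 libraries, too few for an exact ratio. The gene with the identifier before it, Migut.D00155, has no homologue paired and missed the rule by its level alone, with a mean of 4.34 CPM at 6 DAP, 0.14 CPM at 2 DAP and no count at 0, 4 and 8 DAP. Migut.D00155 was chosen after its values were seen, and reads that these neighbours share would have been dropped as not unique.

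Migut.H02008 was at 25.9, 34.1, 18.5 and 20.2 CPM at 6 DAP, against no count in ovules, 0, 0, 0.93 and 0 CPM at 2 DAP, 0.12, 0 and 0.07 CPM at 4 DAP, and 0.15, 2.84, 0 and 0 CPM at 8 DAP. Migut.B00541 was at 10.7, 21.3, 8.87 and 17.5 CPM at 6 DAP, against 0, 0, 0.62 and 0 CPM at 2 DAP and 0.51, 1.61, 0.16 and 0 CPM at 8 DAP. Migut.M00593 was at 8.77, 9.90, 9.66 and 7.09 CPM at 6 DAP, against 0.07, 0, 0.12 and 0 CPM at 2 DAP and 0.07, 2.61, 0.08 and 0 CPM at 8 DAP. Both lacked counts in ovules and at 4 DAP, and all 3 had their highest other level in 8 DAP replicate 2. Migut.N01681, whose homologue is AT1G64830, was at 13.4, 21.0, 9.92 and 10.9 CPM at 6 DAP, against 1.47 CPM in ovule replicate 4 and 0 CPM in the other ovule libraries, 0.28, 0.82, 1.12 and 0.59 CPM at 2 DAP, 0.30, 0.83 and 0.36 CPM at 4 DAP, and 0.15, 2.61, 0 and 0 CPM at 8 DAP. It was the only aspartyl protease among the members with more than 0.08 CPM in any ovule library. All 7 aspartyl proteases were highest in 6 DAP replicate 2, and they made up 20.6% to 30.1% of the members' CPM in each 6 DAP library without counting Migut.N01681.

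The tables at hand pair 13 genes with AT2G03200, and in all 13 the lowest 6 DAP library stood above every library of the other ages. Over all genes tested this was so for 3.53%. For the 6 members among the 13 the rule nearly fixes this, so it is informative for the 7 others only. These tables mostly list genes that the study clustered on the same libraries, so the pairing is not independent of the pattern. The 7 that are not members exceeded 1 CPM at another age. Their 6 DAP means ran from 9.39 ± 3.34 CPM (SD, n = 4) for Migut.M00594 to 77.3 ± 22.6 CPM for Migut.M00595, whose level was 1.61 CPM at 8 DAP. The 3 highest of the family by reads at 6 DAP were thus not members, since the rule also sets a limit at the other ages.

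**Figure D2:**
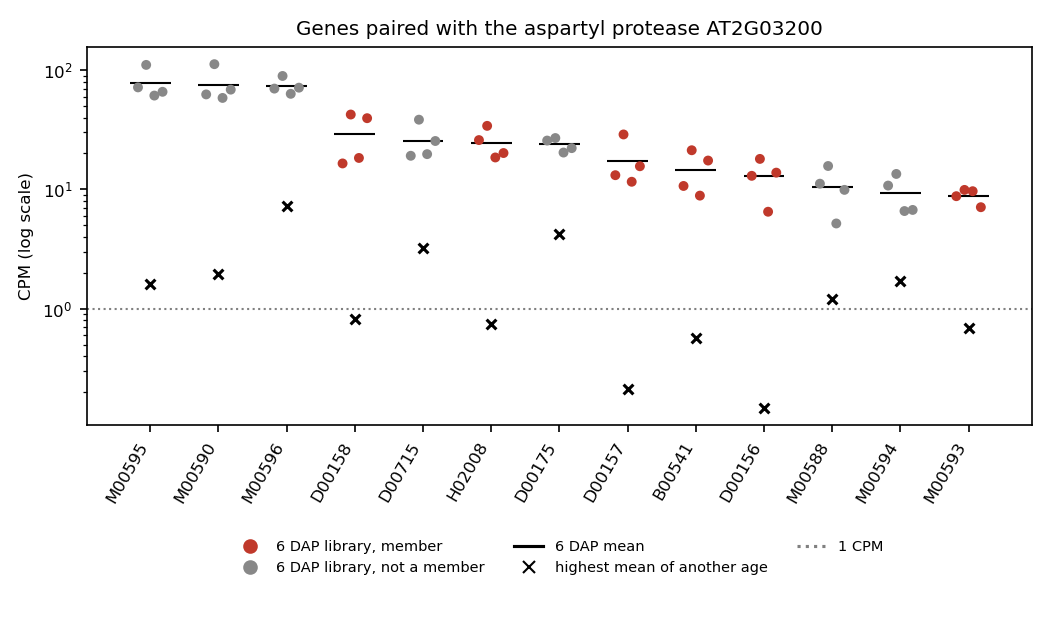
CPM (log scale) of the 13 genes paired with AT2G03200 in each 6 DAP library (points, members in red, others in grey, mean as a bar) and the highest mean of another age (crosses). The 3 highest genes, with means of 73.5 to 77.3 CPM, are not members because their crosses lie above 1 CPM.

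The transcription factors were lower. Migut.D02049, a homologue of MYB54, which in *Arabidopsis* activates secondary wall genes, was at 9.57, 8.19, 10.0 and 8.54 CPM in 6 DAP libraries. It had no count in ovules except 0.15 CPM in replicate 3, 1.92 CPM in 2 DAP replicate 3 and none in the other 2 DAP libraries, 0.12, 0 and 0 CPM at 4 DAP, and 0.80, 1.38, 0.47 and 0.22 CPM at 8 DAP. With a coefficient of variation of 9.39% it was the most even of all members across 6 DAP libraries.

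Migut.F00585, a homologue of LBD15, a LOB-domain protein also on the wall transcription factor list, was at 8.21, 4.62, 8.16 and 5.82 CPM at 6 DAP. Before 6 DAP its only reads gave 0.07 CPM in 4 DAP replicate 3, and at 8 DAP it was at 0.22, 0.92, 0.86 and 0 CPM. Unlike most members, both wall factors were lowest in 6 DAP replicate 2.

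Migut.L00101 and Migut.K01032 share the homologue AGL104, a MIKC*-type MADS-box factor needed for pollen maturation in *Arabidopsis*. Migut.L00101 was at 8.37, 14.7, 7.29 and 9.63 CPM at 6 DAP, against 0.16 CPM in ovule replicate 2 and 0 CPM in the other ovule libraries, 0.28, 0, 1.30 and 0.37 CPM at 2 DAP, and 0.85, 0.98 and 0.58 CPM at 4 DAP. It was the single member without a count at 8 DAP. Migut.K01032 was at 4.31, 6.40, 4.65 and 4.73 CPM at 6 DAP, against no count in ovules, 0.41, 0.25, 0 and 0.37 CPM at 2 DAP, 0, 0.08 and 0.22 CPM at 4 DAP, and 0.80, 1.61, 0.47 and 0.22 CPM at 8 DAP. The 2 copies thus differed in the age nearest to their peak, 4 DAP for Migut.L00101 and 8 DAP for Migut.K01032, both as means under 1 CPM. Migut.N01984, which the study's tables mark as a transcription factor with the homologue AT3G45610, was at 10.0, 16.8, 6.67 and 11.5 CPM at 6 DAP. It had no count in ovules, 0, 0.16, 0.25 and 0 CPM at 2 DAP, 0.24, 0.23 and 0.73 CPM at 4 DAP, and 0, 0.23, 0 and 0 CPM at 8 DAP.

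Among inhibitors of proteases, 2 cystatins, which block cysteine proteases, were members and share the homologue AT5G47550. Migut.I00060 was at 15.9, 16.7, 5.27 and 8.18 CPM at 6 DAP, against no count in ovules or at 2 DAP, 0.24, 0.30 and 0.58 CPM at 4 DAP, and 0.36, 1.84, 0 and 0 CPM at 8 DAP. Migut.N01371 was at 5.34, 5.81, 3.51 and 6.54 CPM at 6 DAP, against no count in ovules, 0, 0.33, 0 and 0.15 CPM at 2 DAP, 0.12, 0 and 0.36 CPM at 4 DAP, and 2.11, 0.92, 0 and 0.07 CPM at 8 DAP. Its highest library outside 6 DAP was 8 DAP replicate 1. Migut.D01912, a matrixin, which is a zinc protease of the extracellular matrix, was at 9.41, 9.60, 3.07 and 6.82 CPM at 6 DAP and reached 2.07 CPM in 8 DAP replicate 2. All 3 were lowest in 6 DAP replicate 3.

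Signalling, transport and trafficking genes made up 10.3% of the members' summed 6 DAP CPM. Migut.K01025, of the family of the small secreted S1 self-incompatibility proteins first known from poppy, was at 19.5, 18.6, 5.53 and 10.5 CPM at 6 DAP, against no count in ovules, 2.27, 0.33, 0 and 0.59 CPM at 2 DAP, 0.54, 0.60 and 0.87 CPM at 4 DAP, and 1.02, 1.61, 0 and 0 CPM at 8 DAP. It had the widest relative spread of the members between 6 DAP libraries, 49.3%. Migut.F02119, a homologue of RIC4, which binds active ROP GTPases and acts on actin in growing pollen tubes, was at 4.46, 7.29, 7.02 and 4.27 CPM at 6 DAP, against 0.40, 0, 0, 0.39 and 0.21 CPM in ovules, 0.14, 0.16, 1.30 and 0.07 CPM at 2 DAP, 1.09, 0.53 and 0.22 CPM at 4 DAP, and 0.29, 0.61, 0.08 and 0 CPM at 8 DAP. The vacuolar sorting receptor homologue VSR6 (Migut.I00381), the peptide transporter homologue PTR1 (Migut.L01995), the RING/U-box protein Migut.N01691 and the calcium-dependent lipid-binding protein Migut.M00021 averaged 5.09 to 7.42 CPM at 6 DAP. Migut.M00021 was at 5.66, 6.85, 1.40 and 6.45 CPM at 6 DAP, with replicate 3 far below the others.

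The other 7 members are an oxygenase and genes of unknown function. Migut.D01040, of the 2-oxoglutarate and Fe(II)-dependent oxygenases, a large family of enzymes of specialized and hormone metabolism, was at 15.2, 8.41, 12.5 and 10.4 CPM at 6 DAP, against no count in ovules, 0, 0, 2.23 and 0.07 CPM at 2 DAP, 0.06, 0.15 and 0.15 CPM at 4 DAP, and 0.07, 0.998, 0 and 0 CPM at 8 DAP. Migut.G00335 (homologue AT5G43150), Migut.N00660 (AT3G07425) and Migut.F01642 (AT2G27740, of unknown function) averaged 10.1 ± 3.67, 6.90 ± 2.98 and 6.54 ± 1.19 CPM at 6 DAP (SD, n = 4). Migut.L01008, Migut.K01039 and Migut.J01623, for which no homologue is paired, averaged 8.47 ± 3.68, 6.14 ± 1.56 and 5.45 ± 0.720 CPM. Migut.K01039 had counts in all 20 libraries and was the single member whose next highest age was the ovule, at 0.630 CPM.

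Within 6 DAP the members were uneven. Their coefficient of variation across the 4 libraries had a median of 28.5% and ran from 9.39% to 49.3%. Over the 10440 genes whose 6 DAP means lay in the same range the median was 14.3%. Levels within this range were not matched, and 18 members averaged below 10 CPM, so the 2 medians are not a like comparison. Such spread was not particular to the members. Of the AT2G03200 relatives outside the membership, Migut.M00588 was at 10.5 ± 4.33 CPM and Migut.M00590 at 75.5 ± 24.8 CPM (SD, n = 4). Migut.D00175 was more even, at 23.8 ± 3.05 CPM. Replicate 2 was the highest library for 21 members and replicate 1 for 8, and replicate 3 was the lowest for 15 and replicate 4 for 10. In 20 members every 6 DAP library reached 5 CPM. The ratio of the highest to the lowest 6 DAP library had a median of 1.92 and a maximum of 4.88, in Migut.M00021.

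**Figure D3:**
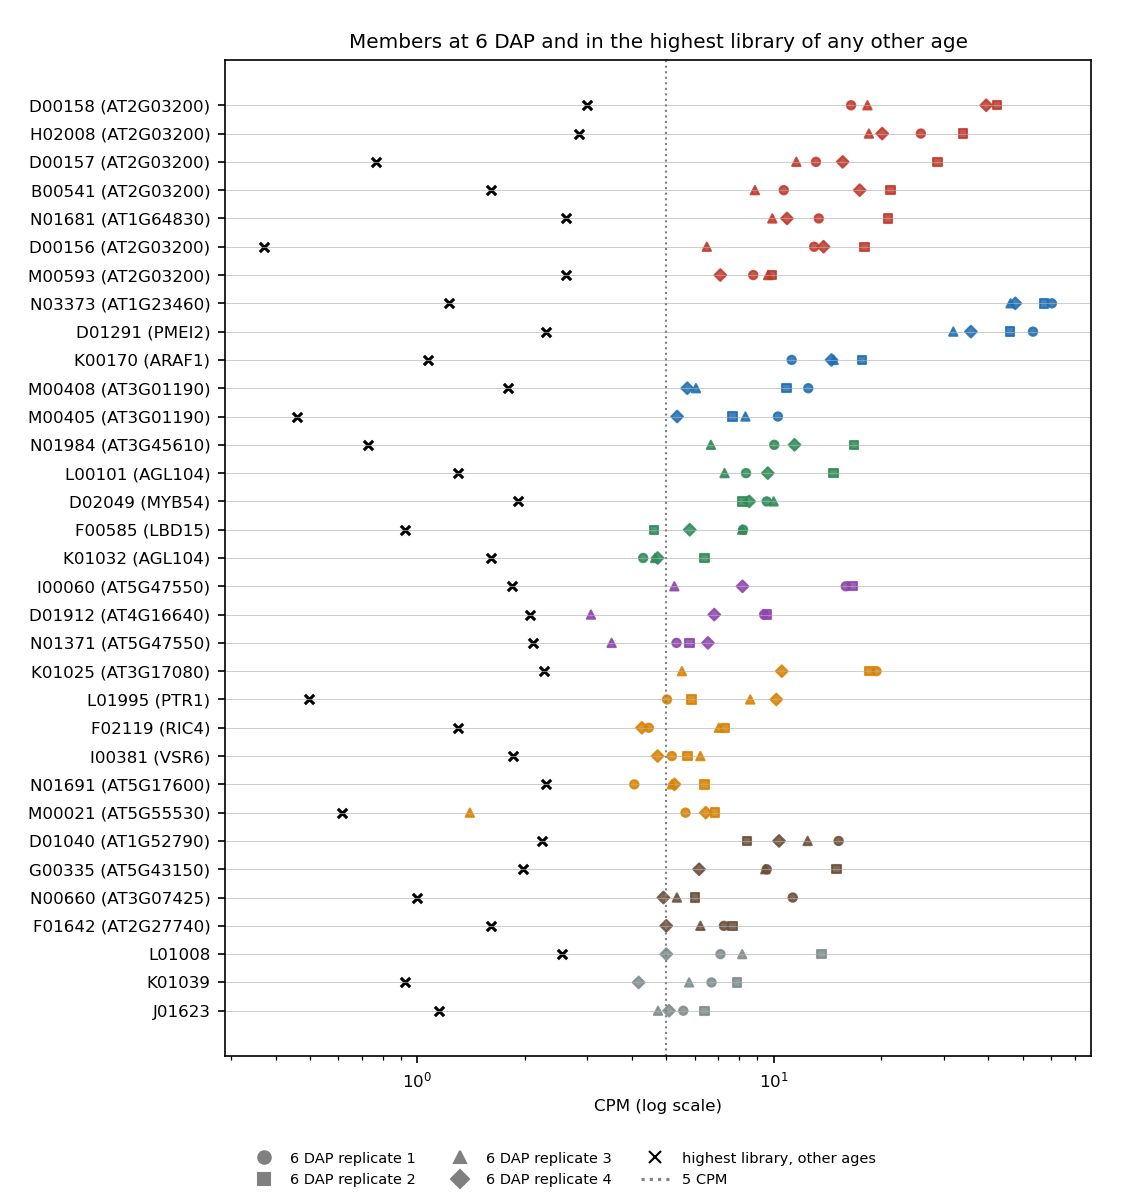
CPM (log scale) of each member in the 4 libraries at 6 DAP (marker shape gives the replicate, colour the role as in the plot of all libraries) and in its highest library of any other age (cross). Every cross lies left of all 4 markers of its row, and squares, which stand for replicate 2, are farthest right in 21 rows.

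Outside 6 DAP the members were highest in 2 libraries. The highest library of the other ages was 8 DAP replicate 2 for 17 members and 2 DAP replicate 3 for 12. In 8 DAP replicate 2 they summed to 41.1 CPM, or 10.0% of the 6 DAP mean, against 3.85 to 11.1 CPM in the other 8 DAP libraries, and 17 members exceeded 1 CPM there. In 2 DAP replicate 3 they summed to 30.4 CPM, or 7.39% of the 6 DAP mean, against 5.99 to 6.68 CPM in the other 2 DAP libraries, and 13 members exceeded 1 CPM there. In the other libraries of these ages, 2 members exceeded 1 CPM at 8 DAP (Migut.N01371 and Migut.K01025) and 1 at 2 DAP (Migut.K01025).

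The 2 libraries also stood apart in most of the lists outside the membership. The 67 wall genes that are not members, from the cellulose, xylan, lignin and wall transcription factor lists, summed to 4662 CPM in 2 DAP replicate 3, against 1348 to 1675 CPM in the other 2 DAP libraries. They summed to 3224 CPM in 8 DAP replicate 2, against 1713 to 1791 CPM in the other 8 DAP libraries. Of the 4 wall lists, the 11 transcription factors did not stand apart in 2 DAP replicate 3, at 320 CPM against 229 to 357 CPM in the other 2 DAP libraries. As a share of the 6 DAP mean, 2 DAP replicate 3 held 40.01% for the cellulose list, 42.9% for xylan and 31.6% for lignin. The other 2 DAP libraries averaged 2.52%, 10.4% and 10.8% for these lists. In 8 DAP replicate 2 the shares were 24.1%, 14.5% and 29.9%, against means of 9.49%, 7.52% and 16.7% in the other 8 DAP libraries. The members held 7.39% and 10.0% in these 2 libraries, against means of 1.55% and 1.63% in the others of their age. The rule limits the members' means at 2 and 8 DAP, so their smaller shares cannot be set against those of the lists. Embryo and maturation markers summed to 122.7 CPM in 8 DAP replicate 2, nearer to the 6 DAP libraries than the 154.5 to 280.5 CPM of the other 8 DAP libraries, and flavonoid genes to 2694 CPM, farther from 6 DAP than the others. Not all 8 embryo and maturation markers follow their sum. Nor do all 5 flavonoid genes, of which 1 rose and 2 fell at 8 against 6 DAP in edgeR, with a median log2 fold change of -0.688. In 2 DAP replicate 3 the embryo and maturation markers summed to 21.8 CPM, against 7.84 to 20.2 CPM in the other 2 DAP libraries. The study's sample list gives 1 mother plant for 8 DAP replicate 2, 6 DAP replicate 2 and 4 DAP replicate 1. In 4 DAP replicate 1 the members summed to 10.4 CPM, against 9.12 and 9.37 CPM in the other 4 DAP libraries, and the wall genes to 2410 CPM, against 2001 and 2268 CPM. The part of seed stage, of the mother plant, of placental tissue and of reads carried over from 6 DAP libraries in the 30.4 and 41.1 CPM was not tested.

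**Figure D4:**
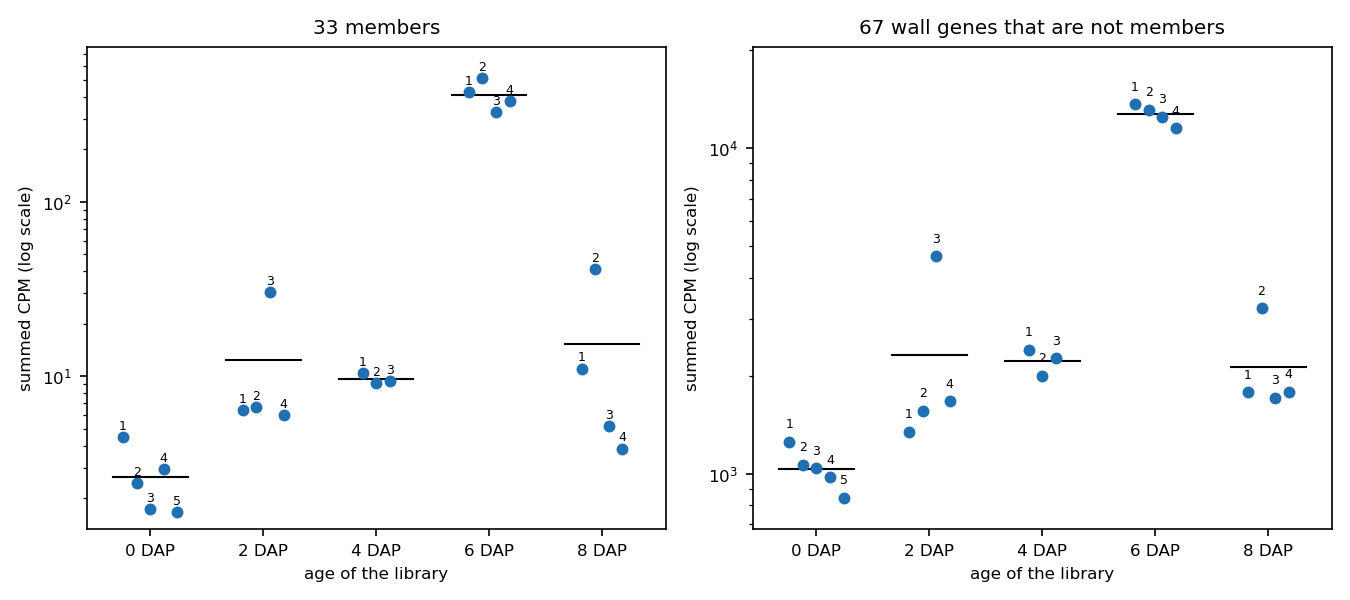
Summed CPM (log scale) of the 33 members (left) and of 67 wall genes that are not members (right) in each library, by age, with replicate numbers beside the points and the mean of each age as a bar. At 6 DAP the members lie between 326 and 514 CPM, and 2 DAP replicate 3 and 8 DAP replicate 2 lie above the other libraries of their age in both panels.

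Membership near the thresholds was a matter of small differences. On the 6 DAP side, Migut.K01032, Migut.M00021 and Migut.N01691 were just inside at 5.02, 5.09 and 5.23 CPM, while Migut.I00534, Migut.E01164 (a caffeoyl-CoA O-methyltransferase homologue) and Migut.K01016 were just outside at 4.97, 4.38 and 4.37 CPM. On the side of the other ages, Migut.D00158, Migut.N01691 and Migut.L01008 were just inside at 0.822, 0.869 and 0.940 CPM. Just outside were Migut.C00691 at 1.05 CPM (8 DAP), Migut.A01152 at 1.09 CPM (2 DAP) and Migut.N01671 at 1.09 CPM (4 DAP). Of these, Migut.A01152, an alpha/beta-hydrolase, averaged 41.9 CPM at 6 DAP, so that only its 2 DAP reads kept it out.

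The rule was repeated with each library left out, and the genes then chosen were read in the library that had not been used. At 6 DAP, 29 of 32 genes reached 5 CPM in replicate 1, 29 of 32 in replicate 2, 28 of 33 in replicate 3 and 24 of 32 in replicate 4. At the other ages, 30 or more of the 31 to 33 genes chosen were at or under 1 CPM in each unused library, except 19 of 34 in 2 DAP replicate 3 and 16 of 39 in 8 DAP replicate 2. The share of all genes at these levels in each unused library was not worked out, so these counts have no background beside them. Of all 28140 genes, 10440 had 6 DAP means between 5.02 and 52.9 CPM, so 5 CPM was a common level. Across these repeats 31 to 39 genes were chosen, and 26 of the 33 members were chosen every time. The 7 others were Migut.D00158, Migut.K01025, Migut.K01032, Migut.L01008, Migut.M00021, Migut.N01371 and Migut.N01691.

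The same ages were then compared over all genes, to read the pathway around the members in genes the rule had not taken. Between 6 and 4 DAP, 1487 of 20242 tested genes were differentially expressed by edgeR's quasi-likelihood test at a Benjamini-Hochberg FDR of 0.01, with 1057 (5.22% of those tested) higher and 430 (2.12%) lower at 6 DAP. Between 8 and 6 DAP, 2892 were differentially expressed, with 1522 (7.52%) higher and 1370 (6.77%) lower at 8 DAP. Of the 33 members, 25 passed as higher at 6 than at 4 DAP and 24 as lower at 8 than at 6 DAP. Nothing is read from these counts, since the rule chose the members on the same contrasts. With 4, 6 and 8 DAP libraries alone and the mother plant as a block, 3009 and 7900 genes passed, and without the block 3682 and 8416. Leaving out a single 4 DAP library brought the first count to 743, 718 and 725 without replicates 1, 2 and 3. The second count fell to 1824, 1922 and 1765 without 6 DAP replicates 1, 2 and 4, and to 1790 and 1791 without 8 DAP replicates 3 and 4.

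Of the 67 wall genes that are not members, 39 rose and 0 fell at 6 against 4 DAP in edgeR, with a median log2 fold change of 3.40 beside -0.0015 over all genes tested. At 8 against 6 DAP, 41 fell and 2 rose, with a median of -2.68 beside -0.07. At an unadjusted p below 0.05, 57 were higher and 2 lower at 6 than at 4 DAP in edgeR, and DESeq2 called 39 higher and 2 lower. Most listed genes come from the study's cluster of genes that peak at 6 DAP, drawn on these libraries, so their direction is not independent evidence. The first count was 23, 16 and 18 without 4 DAP replicates 1, 2 and 3.

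All 3 secondary wall cellulose synthases rose. The largest by reads, the CESA4 homologue Migut.D00465, was at 410 ± 43.5 CPM (n = 4) at 6 DAP and 15.6 ± 12.9 CPM (n = 3) at 4 DAP, with a log2 fold change of 4.93 ± 1.13 (SE; adjusted p = 0.00512 in edgeR's quasi-likelihood test). None of the 3 passed the test between 8 and 6 DAP, where their log2 fold changes were -2.40 to -2.76 (adjusted p = 0.0222 to 0.0575 in the same edgeR test, all 3 at an unadjusted p below 0.05). The rise of CESA4 and of the CESA8 homologue Migut.M01014 did not pass without 4 DAP replicate 1, 2 or 3, with adjusted p up to 0.0375 in edgeR, and that of the CESA7 homologue Migut.J01374 did not pass without 4 DAP replicate 2 or 3 (adjusted p = 0.013 and 0.0137, edgeR). The CESA4 call was also lost with no filter on low counts (adjusted p = 0.0111, edgeR).

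Of 29 lignin genes, 20 rose at 6 against 4 DAP and 17 fell at 8 against 6 DAP, while 1 rose. The laccase homologue LAC17 (Migut.J00316), which polymerizes lignin, was at 1010 ± 163 CPM (n = 4) at 6 DAP and 5.34 CPM (n = 3) at 4 DAP, a log2 fold change of 7.77 ± 1.43 (SE; adjusted p = 0.000891 in edgeR's quasi-likelihood test). Without 4 DAP replicate 2 this adjusted p was 0.0104 in edgeR, just short of the threshold. The methyltransferase homologue OMT1 (Migut.F00144) was at 2289 and 853 CPM at the same ages, a log2 fold change of 1.64 that did not pass (adjusted p = 0.0293, edgeR). At the low end the HCT homologue Migut.D02318 was at 0.0957 and 1.61 CPM.

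Of 24 xylan genes, 14 rose at 6 against 4 DAP, and at 8 against 6 DAP 15 fell and 1 rose. Migut.C01347 was at 437 ± 75.1 CPM at 6 DAP, 24.0 CPM at 4 DAP and 12.7 CPM at 8 DAP, and Migut.L00176 was at 436 ± 90.2, 4.81 and 28.1 CPM at those ages. The rises of Migut.C01347 and Migut.L00176 at 6 against 4 DAP passed in all libraries (adjusted p = 0.00645 and 0.00275, edgeR) but not without 4 DAP replicate 1, 2 or 3 (adjusted p = 0.0166 to 0.0406, edgeR). That of Migut.C01347 was also lost without any single 6 DAP library (adjusted p = 0.0106 to 0.0121, edgeR) and with no filter on low counts (adjusted p = 0.0135, edgeR). Migut.C01349 had close to no reads at any of them.

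Of 11 wall transcription factors, 2 rose at 6 against 4 DAP and 9 fell at 8 against 6 DAP. A homologue of the NAC factor SND2 (Migut.H01467) was at 62.8 ± 16.7 CPM (n = 4) at 6 DAP, against 1.39 ± 0.399 CPM (n = 3) at 4 DAP, a log2 fold change of 5.69 ± 0.873 (SE; adjusted p = 0.000171 in edgeR's quasi-likelihood test). This call held without any single library. At 8 DAP it was at 0.113 CPM. The KNAT7 homologue Migut.A00907 was at 113 CPM at 6 DAP and 147 CPM at 4 DAP, a log2 fold change of -0.17 (adjusted p = 0.811, edgeR), and 41.5 CPM at 8 DAP. Its fall at 8 against 6 DAP (adjusted p = 0.0032, edgeR) was lost without 6 DAP replicate 2 or 4 and without any single 8 DAP library (adjusted p = 0.0101 to 0.0137, edgeR). The MYB83 homologue Migut.N02315 averaged 3.07 CPM at 6 DAP and passed neither test.

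Lists related to the other members were read in the same way. Of 16 tested aspartyl proteases that are not members, 9 rose at 6 against 4 DAP and 9 fell at 8 against 6 DAP, with medians of 3.88 and -3.48. The highest was Migut.N01680, whose identifier precedes that of the member Migut.N01681, at 98.9 ± 24.6 CPM (n = 4) at 6 DAP, 0.767 CPM at 4 DAP and 7.36 CPM at 8 DAP, followed by Migut.M00595, while Migut.A00869 stayed at 0.145 CPM at 6 DAP. The fall of Migut.N01680 at 8 against 6 DAP (adjusted p = 0.00394, edgeR) was lost without 6 DAP replicate 2 or 8 DAP replicate 1, 3 or 4 (adjusted p = 0.0113 to 0.0182, edgeR). Of 8 pectin genes, 7 rose at 6 against 4 DAP and 4 fell at 8 against 6 DAP. The PMEI1 homologue Migut.A00117 was at 645 ± 82.0 CPM at 6 DAP and 0.633 CPM at 4 DAP, and Migut.L01581 (homologue AT1G19170) at 278 ± 26.0 CPM and 18.4 CPM. A pair of further PMEI2 homologues had higher means at 8 than at 6 DAP that did not pass the test. Migut.I00331 was at 70.2 CPM at 8 DAP against 32.4 CPM at 6 DAP, a log2 fold change of 1.46 (adjusted p = 0.0605, edgeR), and Migut.N02793, named after its values were seen, was at 640 against 221 CPM, a log2 fold change of 1.89 (adjusted p = 0.0932, edgeR).

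Of 19 protease inhibitors, 12 rose at 6 against 4 DAP, and at 8 against 6 DAP 8 fell and 2 rose. The cystatin Migut.K01192, which shares its homologue with the 2 member cystatins, was at 653 ± 58.2 CPM (n = 4) at 6 DAP and 0.165 ± 0.121 CPM (n = 3) at 4 DAP, and at 21.8 CPM at 8 DAP. Migut.M01408 of the same family was at 1651 CPM at 6 DAP, against 458 CPM at 4 DAP, and at 770 CPM at 8 DAP, while Migut.C00658 was at 0.286 CPM at 6 DAP and 1.27 CPM at 4 DAP. The rise of Migut.M01408 (adjusted p = 0.00451, edgeR) was lost without any single 4 DAP library and without 6 DAP replicate 1 or 2 (adjusted p = 0.0114 to 0.0334, edgeR), and the fall of Migut.K01192 at 8 against 6 DAP (adjusted p = 0.00299, edgeR) without 8 DAP replicate 3 or 4 (adjusted p = 0.0132 and 0.0128, edgeR). Of 5 peroxidases 1 rose, Migut.N03181 at 2843 ± 835 CPM at 6 DAP against 31.3 CPM at 4 DAP, and 3 fell at 8 DAP, while Migut.L00200 was at 1591 CPM against 600 CPM (adjusted p = 0.0487, edgeR) and Migut.H00364 at 0.107 CPM at 6 DAP. The rise of Migut.N03181 (adjusted p = 0.00689, edgeR) was lost without any single 4 or 6 DAP library or ovule replicate 3 (adjusted p = 0.0101 to 0.0448, edgeR), and with no filter on low counts (adjusted p = 0.0143, edgeR). Of 7 ROP signalling genes, 4 rose at 6 against 4 DAP and 6 fell at 8 against 6 DAP. The homologue of ROP6 (Migut.B00084), a ROP GTPase, was at 354 ± 88.5 CPM at 6 DAP and 77.7 CPM at 4 DAP, that of the ROP interactor RIP3 (Migut.L01661) at 128 and 9.87 CPM, and that of RIC2 (Migut.N00459) at 3.18 and 0.295 CPM. The rises of the first 2 (adjusted p = 0.00657 and 0.00205, edgeR) were lost without any single 4 DAP library (adjusted p = 0.0145 to 0.0404, edgeR), and that of ROP6 also without 6 DAP replicate 1, 2 or 4 (adjusted p = 0.0121 to 0.0165, edgeR). The other RIC4 homologue, Migut.F01874, averaged 67.6 ± 11.4 CPM at 6 DAP and 2.94 CPM at 2 DAP, its highest other age. The member Migut.F02119 shared this peak, with means of 5.76 CPM at 6 DAP and 0.611 CPM at 4 DAP, its highest other age. The limit of 1 CPM at the other ages kept Migut.F01874 out, though relative to its peak its highest other level was lower than the member's.

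**Figure D5:**
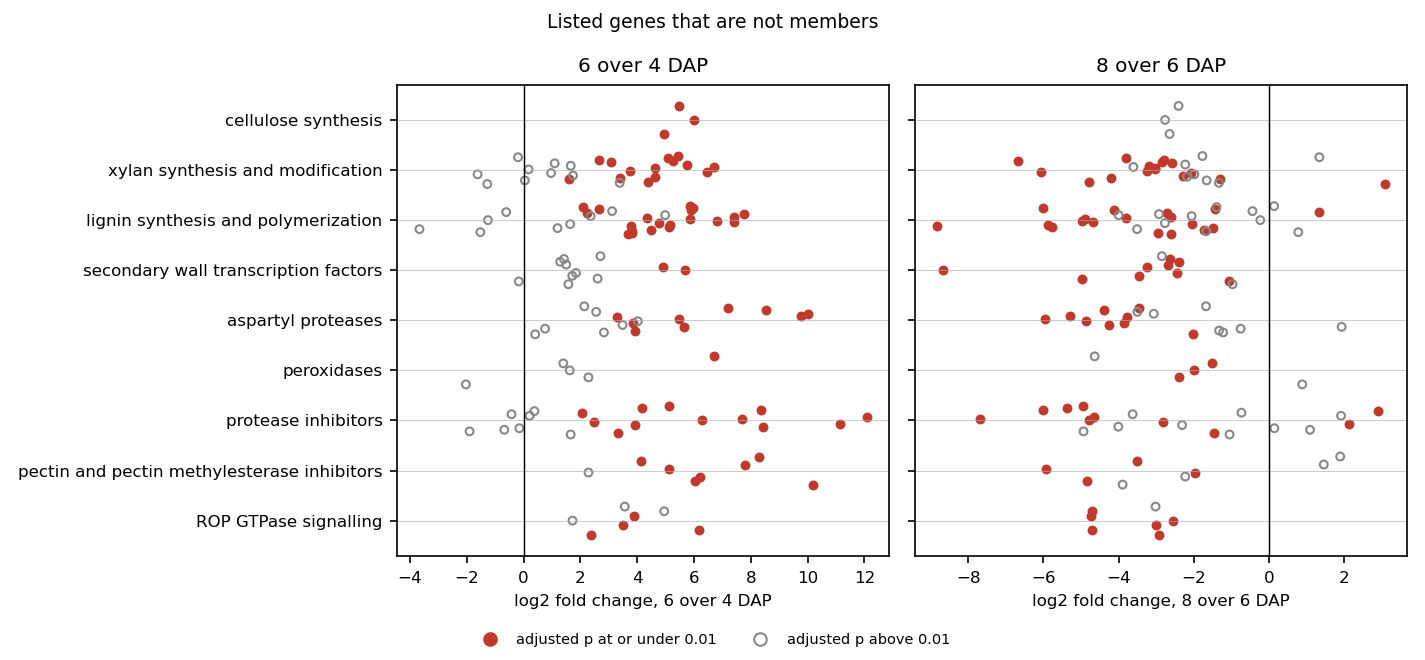
Log2 fold changes in edgeR of listed genes that are not members, at 6 over 4 DAP (left) and 8 over 6 DAP (right), 1 point per gene, with filled points for adjusted p at or under 0.01. Points of the 4 wall lists lie mostly right of 0 in the left panel, where 39 of 67 passed, and left of 0 in the right panel, where 41 fell.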

How the data were processed

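RNA-seq of 20 libraries was analysed. The authors trimmed reads with Trimmomatic, aligned them (STAR) against pseudo-references made for each parent, merged the alignments, and counted properly paired, uniquely mapped reads per Phytozome v2.0 gene with featureCounts. Versions of these tools are not given in the sources used here. The deposited values are raw counts, and no other unit was used. Ages and replicate numbers came from the labels, and homologues and mother plants from the study's tables, which were in part shortened. Whether replicates of 1 age are separate plants is stated without conflict for seeds at 4, 6 and 8 DAP only. The p-values given here used a spread estimated over all 20 libraries, so they may rest in part on technical spread. Fits on the 4, 6 and 8 DAP libraries alone were run as alternatives.

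CPM used the total count of each library. The members were chosen by these values at all 5 ages, so no test between ages is used as evidence on them. They were part of the fit over all genes, and their calls are given as a description. The members and the gene lists were chosen with earlier results of these data known. Every member is named. Values by library are given for the 12 highest at 6 DAP and for those on a list or marked as transcription factors. Of listed genes outside the membership, the 2 highest and the lowest at 6 DAP in each list are named. Others are said to be chosen after their values were seen, apart from relatives of a member that share its homologue.

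Differential expression was tested with edgeR 4.0.16 (R 4.3.3, limma 3.58.1) on 20242 genes above 1 CPM in 3 or more libraries, using TMM scaling, a coefficient for each age, robust quasi-likelihood fits and Benjamini-Hochberg adjustment over all genes tested at 0.01. The SE is the log2 fold change over the root of the F statistic. DESeq2 1.42.0 gave an alternative test. The test of 6 against 4 DAP was also run on simulated counts with equal means at all ages, except for a small set of well-counted genes. Those counts lack the many changed genes and the odd libraries of the real data, so nothing is concluded from them on the calls given here. Seeds at 4, 6 and 8 DAP share mother plants by the study's sample table. Residuals of log2 CPM correlated with a median of 0.0209 in 10 pairs of libraries from 1 plant (1 above 0.1) and of -0.0174 in 30 pairs from different plants. The plant was a block in an alternative. No 2 libraries of 1 age agreed within sampling noise. Plots were drawn with matplotlib 3.10.9 in Python 3.11.15.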

Additional observations from a re-analysis of the deposited data

Results flagged for a closer look

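At 6 DAP no library was marked as an outlier for any of the 33 members, which does not show that they were even. Migut.M00021 was at 1.40 CPM in replicate 3, far below its other 6 DAP libraries. Sums over the members, over the aspartyl proteases among them, over the other members and over the 67 wall genes were looked at in the 4 ages with 4 or 5 libraries, 16 groups in all, and 7 had a library far from the rest. By chance about 1 in 20 independent groups would be marked, but these sums share genes and libraries, so the 7 cannot be set against that share, and 4 of them are the same library. In 2 DAP replicate 3 the members summed to 30.4 CPM, the aspartyl proteases to 4.59 CPM, the other members to 25.8 CPM and the wall genes to 4662 CPM. In 8 DAP replicate 2 the aspartyl proteases summed to 13.7 CPM and the wall genes to 3224 CPM. In ovule replicate 4 the aspartyl proteases summed to 1.47 CPM, all of it from Migut.N01681.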

How the results depend on the processing

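The number of members was 30 under CPM over TMM-scaled library sizes and 30 over DESeq2 size factors, 29 of them the same genes in each case, and 42 with medians in place of means. It was 67 with a minimum of 2.5 CPM at 6 DAP, 15 with 10 CPM, 10 with a maximum of 0.5 CPM at the other ages and 67 with 2 CPM. Without 1 library it was 31 to 39, the highest without 8 DAP replicate 2, and within the libraries numbered 1 to 14, an alternative added after seeing the data, it was 39, with 32 of the members. DEGs between 6 and 4 DAP numbered 2264 in DESeq2, 2294 in edgeR's likelihood ratio test, 2697 at an FDR of 0.05, 3682 with 4, 6 and 8 DAP libraries only, 3009 with the mother plant as a replicate block, and 718 to 1766 without 1 library. DEGs between 8 and 6 DAP numbered 4414 in DESeq2, 6013 at an FDR of 0.05, 8416 with 4, 6 and 8 DAP libraries only, 7900 with the replicate block, and 1765 to 3848 without 1 library. Rising wall genes numbered 16 to 46 and falling ones 29 to 51 without 1 library, and 55 and 57 with the block. The cause of these differences was not tested. Of 49 fold changes of named listed genes and 380 alternatives, 294 kept direction and side of the threshold, 67 passed only under the alternative and 18 were lost (15 of them without 1 library, named beside their values or, for the falls of Migut.F00144 and Migut.L00200 at 8 DAP, at adjusted p of 0.0103 to 0.0237 in edgeR), and Migut.H00364 between 8 and 6 DAP turned to -0.63 without 1 library. A level under about 0.2 CPM rests on 3 counts or fewer, so silence below it was not detectable at this depth.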
